A study of Homo sapiens with 6 samples.

Results

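The genes described here belong to the unfolded protein response and the integrated stress response. The list named 38 genes by symbol. A gene was taken as measured where the array's annotation gave a transcript cluster, the group of probes assigned to 1 locus, that symbol and no other. Where a gene had more than 1 such cluster, the brightest by its mean log2 value was used. This found 37 of the 38 genes, among 18417 genes measured in all. PDIA3 shares its clusters with a second symbol and was not analysed here. The cells were MDA-MB-231, an established human line of triple-negative breast cancer. Cultures were exposed to selamectin, an avermectin antiparasitic, at 1 µM for 24 h, or served as controls, with 3 arrays in each group. The array titles call the controls untreated, whereas the protocol and design text speak of vehicle, so it is not settled whether the control medium held the solvent. Cultures of both groups came from the same line and grew in a serum-containing medium with added pyruvate, glutamine substitute and non-essential amino acids. The study's title presents avermectins as inhibitors of the SIN3 corepressor. The design text calls the replicates independent without saying how, so p-values measure the spread between these arrays.

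The unfolded protein response is set off when misfolded protein gathers in the endoplasmic reticulum (ER). The membrane sensors IRE1 (gene ERN1), PERK (gene EIF2AK3) and ATF6 then raise ER chaperones, folding enzymes and degradation factors. PERK and the amino acid sensor GCN2 (gene EIF2AK4) also phosphorylate the translation factor eIF2alpha, which slows protein synthesis but favours translation of ATF4. ATF4 then raises genes for amino acid supply and for stress outputs such as CHOP (gene DDIT3), a programme called the integrated stress response because several kinases feed it. ATF4 is regulated largely at translation and XBP1 by splicing of its messenger RNA, and neither step is seen in a single value per transcript cluster.

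These branches have known recognition elements in promoters, and stretches that hold such letters in 10 of the genes are printed to set the ATF4 type beside the ER chaperone type. Promoter windows were taken from RefSeq (build GRCh38.p14), each with 250 bases before and 50 after a transcript start. Of the 38 genes, 34 matched by symbol, with 49 windows because 11 had several starts. No window was found for the measured genes PSPH, SHMT2 and NUPR1, or for PDIA3, so these were not searched. Both strands were searched for 4 motifs, with N for any base. The C/EBP-ATF response element (CARE) bound by ATF4 was spelled TGATGNAA, and 3.62% of all 35116 windows held it. The ER stress element (ERSE) bound by ATF6 with NF-Y was searched as CCAAT, 9 bases of any kind and CCACG (0.0769% of windows), and its variant ERSE-II as ATTGG, 1 base of any kind and CCACG (0.0541%). The unfolded protein response element (UPRE) bound by XBP1 was spelled TGACGTGG (0.729%). Capitals below mark the motif on either strand, and each stretch lies wholly before the start. The first 4 carry a CARE match, HERPUD1 with an ERSE-II as well, and the others carry ERSE or ERSE-II. HYOU1 also holds a UPRE that overlaps the first of its ERSE-II matches.
ASNS, chr7:97872444-97872501, minus strand: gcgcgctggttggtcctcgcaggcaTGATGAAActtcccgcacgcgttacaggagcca
CHAC1, chr15:40953237-40953294, plus strand: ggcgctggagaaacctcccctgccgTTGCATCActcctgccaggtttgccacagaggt
CEBPG, chr19:33374046-33374103, plus strand: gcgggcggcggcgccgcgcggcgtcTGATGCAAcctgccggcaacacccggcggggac
HERPUD1, chr16:56931941-56932060, plus strand: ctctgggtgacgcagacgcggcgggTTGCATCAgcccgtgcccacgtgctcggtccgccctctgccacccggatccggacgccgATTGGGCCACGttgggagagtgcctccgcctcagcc
HSPA5, chr9:125241366-125241434, minus strand: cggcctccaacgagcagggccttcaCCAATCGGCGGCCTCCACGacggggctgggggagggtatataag
HSP90B1, chr12:103930191-103930364, plus strand: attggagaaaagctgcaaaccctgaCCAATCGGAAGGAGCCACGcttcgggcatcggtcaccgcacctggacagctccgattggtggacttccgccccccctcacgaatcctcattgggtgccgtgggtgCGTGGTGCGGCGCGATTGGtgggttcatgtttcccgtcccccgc
CRELD2, chr22:49918529-49918597, plus strand: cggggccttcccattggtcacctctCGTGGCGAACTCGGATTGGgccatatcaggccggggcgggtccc
SDF2L1, chr22:21642089-21642149, plus strand: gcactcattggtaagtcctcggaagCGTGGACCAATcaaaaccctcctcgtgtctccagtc
HYOU1, chr11:119057249-119057418, minus strand: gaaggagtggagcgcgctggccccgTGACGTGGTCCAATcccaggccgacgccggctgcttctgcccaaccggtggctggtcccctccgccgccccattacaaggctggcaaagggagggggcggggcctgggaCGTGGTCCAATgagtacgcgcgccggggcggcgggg
XBP1, chr22:28800578-28800646, minus strand: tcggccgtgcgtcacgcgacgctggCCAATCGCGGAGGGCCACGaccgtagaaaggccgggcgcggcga

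By these letters, 8 of 11 ER chaperone genes with a window held an ERSE or ERSE-II. Counted by gene in the same way, 0.0916% of all genes with a window held an ERSE and 0.0696% an ERSE-II. CALR, CANX and PDIA6 were the chaperone genes with an ERSE that are not printed. Of the 11 ATF4 target genes with a window, ASNS and CHAC1 held a CARE, where 4.46% of all genes with a window did. No ERSE or ERSE-II was found among these 11. A match is a description of the letters, and a missing match says only that they are not in this window.

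None of the 37 genes passed the test after 24 h of selamectin. The test was limma on the deposited log2 values, with p adjusted over all 18417 genes and a threshold of 0.05. Over the whole array 864 genes passed, or 4.69%, with 2.41% higher and 2.28% lower. At an unadjusted p under 0.05 in limma, 6 of the 37 were higher and 6 were lower, or 32.4%, against 19.9% of all genes (11.7% higher and 8.21% lower). The 3 selamectin arrays lay wholly above the untreated arrays for 6 of the 37 and wholly below for 5, or 29.7%, against 25.3% of all genes (16.0% higher and 9.30% lower). The median log2 difference, selamectin minus untreated, was 0.04 over the 37 and 0.04 over all genes. With the brightest cluster of each gene, DDIT3 was the only one of the 37 that differed by 1.5-fold or more. On the same clusters 3 genes had a limma adjusted p under 0.1, namely DDIT3, TRIB3 and CHAC1. A second, dimmer cluster of ATF4 was 1.64-fold lower and is described with that gene. Other settings of the test called between 0 and 9 of the 37. The calls are given with the genes or, as for the 9 with array weights, in the later section on the processing.

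Over all genes, arrays of the same group correlated with r from 0.9949 to 0.9971 and arrays of different groups with r from 0.9913 to 0.9954 (computed across genes within pairs of arrays, so that no p-value applies). The mean log2 value of 6 genes typical of a mesenchymal triple-negative line, VIM and CD44 among them, was between 11.22 and 11.47 on the 6 arrays, where the array medians were between 7.47 and 7.51. Of these 6, CD44, a hyaluronan receptor, rose by 0.42 with selamectin (limma adjusted p = 0.020). At an unadjusted p below 0.05 in limma, 3 of the 6 were higher and 1 lower, where 11.7% of all genes were higher and 8.21% lower. The lower one was EGFR, which differed by -0.32 with groups that did not overlap (limma adjusted p = 0.053). For 6 genes that such a line lacks or holds low, ESR1, PGR and CDH1 among them, the mean was between 6.80 and 6.95. Within this list ERBB2 lay above the array medians, at 9.17 untreated and 9.08 with selamectin, and the other genes lay below them. For 11 leukocyte, endothelial and fibroblast markers the mean was between 6.76 and 6.84 untreated and between 6.77 and 6.84 with selamectin. That mean covers unequal levels: untreated means were 10.07 for CD68, 9.52 for CDH5 and 9.05 for COL1A1, and below the array medians for the other 8. Of the 11, 0 passed in limma, and at an unadjusted p below 0.05, 2 were higher and 1 lower. CDH5 differed by -0.59 with groups that did not overlap (limma adjusted p = 0.067). Without detection calls, no transcript can be called absent.

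**Figure D1:**
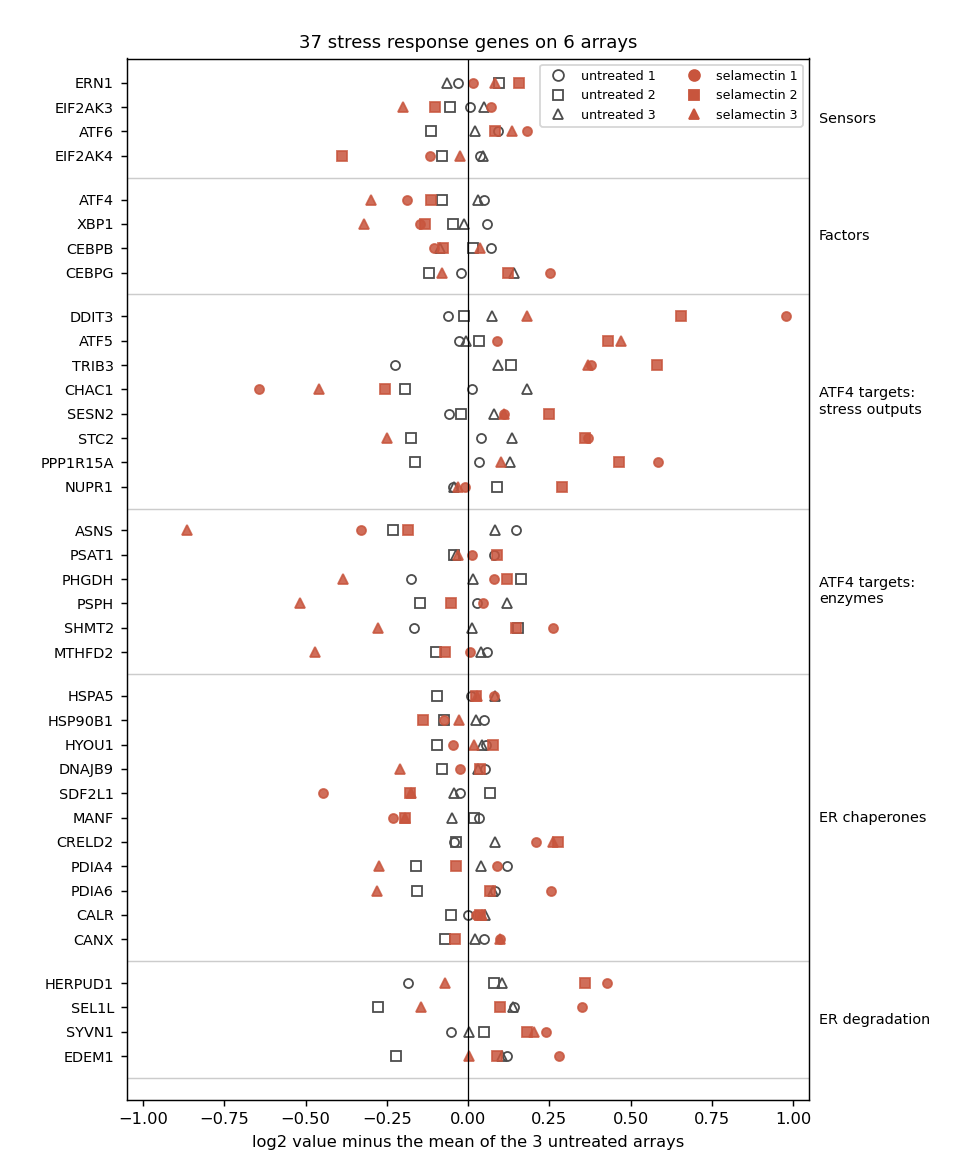
The plot shows, for each of 37 genes (rows, grouped by role), the log2 value on each of 6 arrays minus the mean of the 3 untreated arrays. Open grey symbols are untreated arrays and filled red symbols selamectin arrays, with the same shape for the same replicate number. DDIT3, TRIB3 and ATF5 have all red symbols to the right of the grey ones, CHAC1 and ATF4 to the left, and most ER chaperones show the groups mixed.

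The sensors that start both responses gave values that overlapped between groups. ERN1, the IRE1 kinase and nuclease that splices XBP1 messenger RNA, differed by 0.08 log2 units (95% interval of the fit from -0.12 to 0.28). EIF2AK3, the PERK kinase, differed by -0.08 (interval -0.29 to 0.14), and ATF6, the membrane-bound transcription factor released by cleavage, by 0.13 (interval -0.04 to 0.31). EIF2AK4, the GCN2 kinase that senses uncharged transfer RNA, differed by -0.18 (interval -0.41 to 0.06). Their limma adjusted p-values lay between 0.39 and 0.70. Activity of these proteins is set by phosphorylation or cleavage, which was not measured.

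Among the transcription factors, ATF4 and XBP1 had lower selamectin values on every array, without passing the test. ATF4, the effector of the integrated stress response, read 12.61, 12.48 and 12.60 on the untreated arrays and 12.38, 12.45 and 12.27 on the selamectin arrays. The groups did not overlap, and the log2 difference was -0.20 ± 0.08 (SE; limma adjusted p = 0.17). ATF4 has a second, dimmer cluster, which the annotation ties to other transcript records of the gene. That cluster read 12.08, 11.89 and 11.84 untreated and 11.17, 11.34 and 11.16 with selamectin. All 3 selamectin arrays lay well below the lowest untreated array, at 11.22 ± 0.10 against 11.94 ± 0.12 (SD, n = 3). Put in place of the brighter cluster, an alternative chosen after the values were seen, it fell by 0.71 ± 0.09 log2 units (SE), or 1.64-fold, with a limma adjusted p of 0.0042. The adjusted p of that cluster was 0.042 when all 33297 clusters entered the fit, and the mean of both clusters gave -0.46 (limma adjusted p = 0.012). The direction was the same in both clusters.

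XBP1, the factor made active by IRE1, read 12.71, 12.60 and 12.64 untreated and 12.50, 12.52 and 12.33 with selamectin. Its groups did not overlap and the log2 difference was -0.20 ± 0.08 (SE; limma adjusted p = 0.17). CEBPB, a bZIP factor that pairs with ATF4 or DDIT3, differed by -0.05 (interval -0.22 to 0.12). CEBPG, another bZIP partner of ATF4 and the holder of a CARE in the stretch printed above, differed by 0.10 (interval -0.15 to 0.34).

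**Figure D2:**
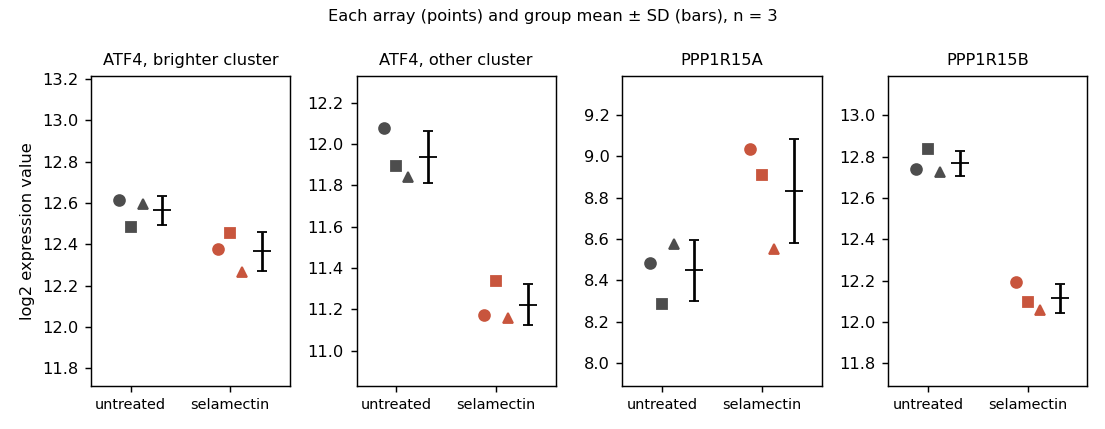
Each panel shows log2 expression values on 3 untreated and 3 selamectin arrays (points) with the group mean ± SD (bars, n = 3), and all panels span the same range of log2 units. The other ATF4 cluster and PPP1R15B are lower on every selamectin array by more than the spread, the brighter ATF4 cluster is lower by 0.20, and PPP1R15A overlaps between groups.

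The 8 stress outputs of ATF4 had 7 positive differences and 1 negative, where 63.0% of all genes were positive. DDIT3, which encodes the pro-apoptotic factor CHOP, read 9.35, 9.40 and 9.48 untreated and 10.39, 10.07 and 9.59 with selamectin. All selamectin arrays were higher, but array 3 stood only slightly above the highest untreated array. The means were 9.41 ± 0.07 and 10.02 ± 0.40 (SD, n = 3), a 1.52-fold difference (log2 difference 0.61 ± 0.16 SE, limma adjusted p = 0.061). Without selamectin array 3 the difference was 0.82 and passed (limma adjusted p = 0.0027), and without any 1 of the other 5 arrays the adjusted p was between 0.11 and 0.20.

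TRIB3, a pseudokinase that feeds back on ATF4 and DDIT3, read 9.20, 9.56 and 9.52 untreated and 9.81, 10.01 and 9.80 with selamectin. The groups did not overlap, and untreated array 1 was the lowest of all 6. The log2 difference was 0.44 ± 0.12 (SE; limma adjusted p = 0.052), or 1.36-fold. It passed in 5 of 16 alternative settings, with a limma adjusted p between 0.013 (array weights) and 0.21 (without selamectin array 2) over all of them. With 1 array left out the difference lay between 0.33 and 0.51.

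ATF5, a bZIP factor translated under eIF2alpha phosphorylation, read 7.30, 7.36 and 7.32 untreated and 7.42, 7.76 and 7.80 with selamectin. Selamectin arrays 2 and 3 were high and array 1 lay just above the untreated arrays. The log2 difference was 0.33 ± 0.11 (SE; limma adjusted p = 0.11), and without selamectin array 1 it was 0.45 and passed (limma adjusted p = 0.041). Without any 1 other array it lay between 0.26 and 0.35 (limma adjusted p between 0.13 and 0.33). PPP1R15A, the inducible GADD34 subunit that brings a phosphatase to eIF2alpha, read 8.48, 8.28 and 8.58 untreated and 9.03, 8.91 and 8.55 with selamectin. Its groups overlapped through selamectin array 3, and the log2 difference was 0.38 ± 0.13 (SE; limma adjusted p = 0.13). Without that array it was 0.52 and passed (limma adjusted p = 0.022), and without any 1 other array it lay between 0.28 and 0.45 (0.19 to 0.34).

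CHAC1, a glutathione-degrading cyclotransferase and a sharply inducible ATF4 target, went against its neighbours. It read 9.55, 9.34 and 9.71 untreated and 8.89, 9.28 and 9.08 with selamectin. The selamectin values were all lower, array 2 only just. The log2 difference was -0.45 ± 0.13 (SE; limma adjusted p = 0.068), or 1.37-fold lower. SESN2, a leucine-binding inhibitor of mTORC1 signalling, differed by 0.16 with groups that did not overlap (interval -0.05 to 0.36). STC2, a secreted glycoprotein hormone, also differed by 0.16 and read 9.11 on selamectin array 3, below all untreated arrays (interval -0.19 to 0.51). NUPR1, a small stress-induced chromatin protein, differed by 0.08 (interval -0.15 to 0.32).

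The 6 ATF4 target genes that make amino acids and one-carbon units had 2 positive and 4 negative differences, and none passed. ASNS, asparagine synthetase, read 10.86, 10.48 and 10.79 untreated and 10.38, 10.53 and 9.84 with selamectin. Selamectin array 3 was far below the rest, and selamectin array 2 overlapped the untreated arrays. The log2 difference was -0.46 ± 0.16 (SE; limma adjusted p = 0.14), and -0.26 without selamectin array 3 (limma adjusted p = 0.23). PHGDH, PSAT1 and PSPH, which catalyse the steps of serine synthesis in that order, differed by -0.06, 0.02 and -0.17. The mitochondrial one-carbon enzymes SHMT2 and MTHFD2 differed by 0.04 and -0.18. The adjusted p-values of these 5 enzymes in limma lay between 0.42 and 0.89. The other cluster of PSPH gave 0.08 and that of MTHFD2 gave -0.32, with limma adjusted p-values of 0.75 and 0.15. On selamectin array 3, 5 of the 6 enzymes, all but PSAT1, had their lowest value of all 6 arrays.

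ER chaperone and folding genes lay close to their untreated level. HSPA5, the ER chaperone BiP and the usual marker of the response, read 13.58, 13.48 and 13.66 untreated and 13.65, 13.60 and 13.60 with selamectin. The groups overlapped fully, and the log2 difference was 0.04 ± 0.06 (SE; interval -0.10 to 0.19, limma adjusted p = 0.74). HSP90B1, the ER chaperone GRP94, differed by -0.08 (interval -0.22 to 0.06) and HYOU1, a large HSP70-like chaperone and exchange factor for BiP, by 0.02 (interval -0.18 to 0.21). DNAJB9, a J-domain co-chaperone and XBP1 target, differed by -0.07 (interval -0.28 to 0.15). The lectin chaperones CALR and CANX differed by 0.04 and 0.05, and the disulfide isomerases PDIA4 and PDIA6 by -0.07 and 0.01.

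Of the 11 chaperone genes, CRELD2, MANF and SDF2L1 had groups that did not overlap, or 27.3%, near the 25.3% of all genes. CRELD2, a secreted disulfide-handling protein, read 9.01, 9.02 and 9.14 untreated and 9.27, 9.33 and 9.32 with selamectin, higher on every array. Its log2 difference was 0.25 ± 0.09 (SE; limma adjusted p = 0.14). MANF, a secreted cofactor of BiP, read 11.67, 11.66 and 11.59 untreated and 11.41, 11.45 and 11.45 with selamectin, lower on every array. Its difference was -0.21 ± 0.07 (SE; limma adjusted p = 0.15). SDF2L1, a component of ER chaperone complexes, read 9.63, 9.72 and 9.61 untreated and 9.20, 9.47 and 9.48 with selamectin. It too was lower on every array, with a difference of -0.27 ± 0.10 (SE; limma adjusted p = 0.17). CRELD2 and SDF2L1, which both hold an element of the ERSE type, thus differed with opposite signs.

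The 4 genes of ER-associated degradation, which moves misfolded proteins to the proteasome, all had positive differences, where 63.0% of all genes did, and none passed. HERPUD1, a scaffold of the degradation complex with both a CARE and an ERSE-II, read 11.11, 11.38 and 11.40 untreated and 11.72, 11.66 and 11.22 with selamectin. Arrays 1 and 2 of selamectin were above all untreated arrays and array 3 was not. Its log2 difference was 0.24 ± 0.13 (SE; limma adjusted p = 0.34), and 0.39 without selamectin array 3, which passed (limma adjusted p = 0.036). It was 0.14 without selamectin array 1 (limma adjusted p = 0.64) and 0.15 without untreated array 1 (0.71). SYVN1, the ubiquitin ligase of the complex, read 10.07, 10.17 and 10.12 untreated and 10.36, 10.30 and 10.32 with selamectin. Its groups did not overlap, and the difference was 0.21 ± 0.08 (SE; limma adjusted p = 0.19). SEL1L, the adaptor of that ligase, differed by 0.10 (interval -0.22 to 0.42), and EDEM1, a mannosidase-like protein that marks glycoproteins for degradation, by 0.12 (interval -0.14 to 0.39). SEL1L was at -0.023 without selamectin array 1 and -0.037 without untreated array 2, and EDEM1 was at 0.013 without the latter.

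Set side by side, the ATF4 stress outputs differed from untreated by larger amounts than the ER chaperones at the median, upward in all but CHAC1. Of the ATF4 target enzymes, only ASNS lay outside the range of the chaperones with the brightest clusters. The other cluster of MTHFD2, at -0.32, lay outside that range as well. The 8 stress outputs had a median log2 difference of 0.25 and ranged from -0.45 to 0.61. The 6 enzymes had a median of -0.12 and ranged from -0.46 to 0.04. The 11 chaperones had a median of 0.01 and ranged from -0.27 to 0.25, where the median of all genes was 0.04. The median absolute log2 difference was 0.36 for the stress outputs, 0.12 for the enzymes and 0.07 for the chaperones, against 0.10 for all genes. Over all 14 ATF4 targets the median was 0.06. No chaperone's 95% interval reached above 0.45 or below -0.49, while the interval of DDIT3 reached 0.97. The ATF4 targets also varied more between the selamectin arrays. The median SD there was 0.20 for the stress outputs and 0.28 for the enzymes, against 0.06 for the chaperones and 0.10 for all genes. Over the untreated arrays it was 0.11 for the stress outputs and 0.15 for the enzymes, against 0.07 for the chaperones and 0.10 for all genes. These are descriptions of the lists, and the difference between them was not tested. The genes that hold a CARE differed by -0.46 (ASNS), -0.45 (CHAC1), 0.10 (CEBPG) and 0.24 (HERPUD1).

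**Figure D3:**
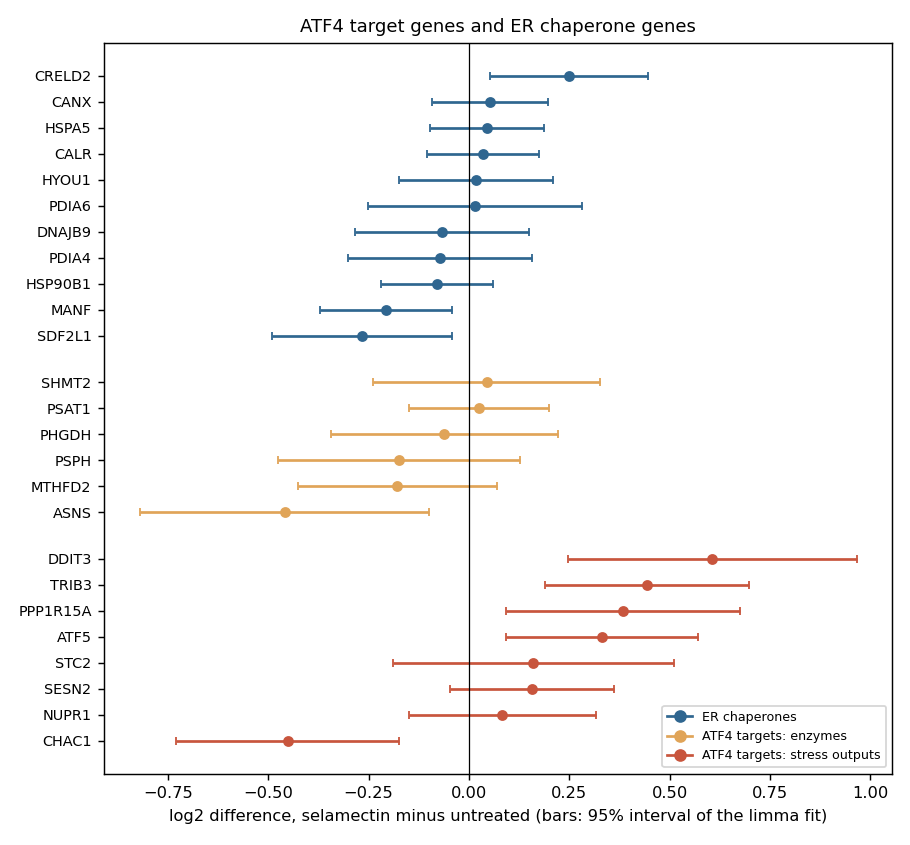
Points show the log2 difference, selamectin minus untreated, of 11 ER chaperone genes (blue), 6 ATF4 target enzymes (yellow) and 8 ATF4 stress outputs (red), and bars show the 95% interval of the limma fit, not adjusted for the number of genes. The stress outputs spread from CHAC1 at -0.45 to DDIT3 at 0.61, while the chaperones stay between -0.27 and 0.25.

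The selamectin arrays did not share 1 pattern. Relative to the untreated mean, the stress outputs averaged 0.23, 0.35 and 0.06 on selamectin arrays 1, 2 and 3, where the untreated arrays spanned -0.04 to 0.08. The degradation genes averaged 0.33, 0.18 and -0.002 on the same arrays. The enzymes averaged 0.01, 0.01 and -0.42, so that their mean was low on array 3 alone. By gene, ASNS was also below its untreated values on selamectin array 1, at 10.38, and PSAT1 was within its untreated values on array 3. The chaperones averaged -0.01, -0.01 and -0.06, within the span of the untreated arrays. Of the 37 genes, 12 had their lowest value on selamectin array 3, or 32.4%, against 20.2% of all genes. Selamectin array 1 held the highest value of 13 (35.1%, against 18.4% of all genes), among them all 4 degradation genes, and untreated array 2 the lowest of 10 (27.0%, against 17.9%). Without selamectin array 3 the median log2 difference was 0.31 for the stress outputs, 0.02 for the enzymes and 0.03 for the chaperones. What sets these arrays apart was not tested.

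**Figure D4:**
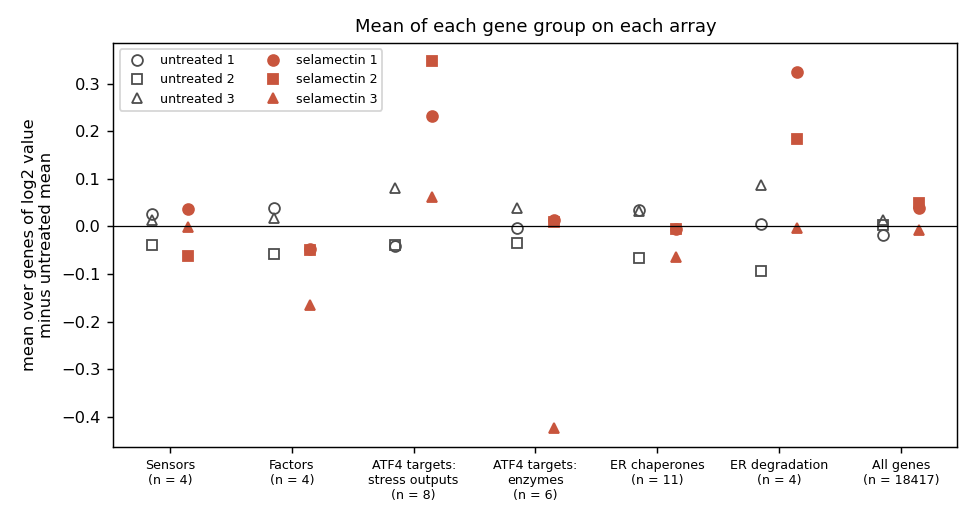
Each symbol is the mean, over the genes of a group (number of genes below the axis), of the log2 value on 1 array minus the untreated mean. Open grey symbols are untreated and filled red symbols selamectin arrays, by replicate number. On selamectin array 3 (triangles) the ATF4 target enzymes stand at -0.42 and the stress outputs near the untreated arrays.

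Other genes of the same pathways gave 9 calls among 111 measured, 3 higher and 6 lower, from lists written from textbook knowledge with earlier results of these data known. This is 8.11%, against 4.69% of all genes (2.41% higher and 2.28% lower). Fitted over 33297 clusters instead of genes, CTH, ERO1B and PPP1R15B were the 3 that still passed. Of 36 further ATF4 targets, 1 rose and 3 fell (11.1%), with a median log2 difference of -0.05. CTH, the cystathionine gamma-lyase of cysteine synthesis, fell by 1.24 log2 units and was lowest on selamectin array 3, at 11.82. SLC7A11, the cystine carrier of the same supply line, fell by 0.68, and its adjusted p was 0.053 without untreated array 1. ALDH1L2, the mitochondrial folate dehydrogenase that follows MTHFD2, read 9.61, 9.48 and 9.58 untreated and 9.02, 9.13 and 8.77 with selamectin. It fell by 0.59 ± 0.11 (SE; limma adjusted p = 0.015), and lost the call without untreated array 1 (0.073) or untreated array 3 (0.072). SLC6A9, a glycine transporter, rose by 0.42 ± 0.09 (SE; limma adjusted p = 0.032), and held its call only when selamectin array 3 was the array left out (adjusted p between 0.053 and 0.15 without any other).

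Among 29 further control genes, 2 rose and 1 fell (10.3%, against 4.69% of all genes, with 2.41% higher and 2.28% lower). PPP1R15B, the constitutive counterpart of PPP1R15A in the eIF2alpha phosphatase, read 12.74, 12.84 and 12.72 untreated and 12.19, 12.09 and 12.06 with selamectin. Every selamectin array was lower by far more than the spread, at 12.11 ± 0.07 against 12.77 ± 0.06 (SD, n = 3). It fell by 0.65 ± 0.07 log2 units (SE; limma adjusted p = 0.0028), or 1.57-fold, and passed under all 16 alternative settings of the fit. CREB3, an ER-bound bZIP factor, rose by 0.53 ± 0.11 (SE; limma adjusted p = 0.022), and NFYC, a subunit of the NF-Y factor that reads the CCAAT part of the ERSE, rose by 0.47 ± 0.11 (SE; 0.039). CREB3 lost its call without selamectin array 1 (limma adjusted p = 0.053) or 2 (0.077) or untreated array 1 (0.084) or 3 (0.087). NFYC lost it without any 1 array other than selamectin array 3 (limma adjusted p between 0.083 and 0.17).

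Among 46 further genes of ER folding, transport and degradation, none rose in limma and 2 fell, or 4.35%, near the 4.69% of all genes. At an unadjusted p below 0.05, 8 were higher and 10 lower, where 11.7% of all genes were higher and 8.21% lower. ERO1B, an oxidase that recharges disulfide isomerases, read 6.51, 6.57 and 6.71 untreated and 5.97, 5.65 and 5.75 with selamectin. It was lower on every array and fell by 0.81 ± 0.09 (SE; limma adjusted p = 0.0038), and it kept its call in all 15 settings that kept the gene. ERO1B is dim, with all values below the array medians (7.47 to 7.51), and the setting without the dimmest genes left it out. SEC24D, a cargo-binding coat subunit of vesicles leaving the ER, read 10.23, 10.18 and 10.03 untreated and 9.80, 9.58 and 9.50 with selamectin. It fell by 0.52 ± 0.11 (SE; limma adjusted p = 0.021), and lost the call without selamectin array 2 (0.093), untreated array 1 (0.095), 2 (0.053) or 3 (0.054).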

How the data were processed

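Total RNA of 6 cultures was labelled with biotin and hybridised to Affymetrix whole-transcript arrays, per the labels. Tools named without a version in the submitters' processing notes are RMA, Affymetrix Expression Console and Transcriptome Analysis Console. The authors deposited 1 value for each of 33297 transcript clusters and array, taken here as log2 values from RMA. RMA as commonly run removes a shift shared by all genes and compresses changes of dim genes. The sources used here do not give the authors' genome build. Arrays have no read depth, and their number limits the precision; the median SE of a log2 difference was 0.094.

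Of the clusters, 19460 had 1 symbol, and 18417 genes remained with the brightest cluster kept. The fit used R 4.3.3 and its package limma 3.58.1 (eBayes with intensity trend), selamectin minus untreated, two-sided, with Benjamini-Hochberg adjustment over all genes. The fit was first tested on simulated data. Alternatives were another normalization, median centring, leaving out dim genes, eBayes without trend or made robust, weights per array, cluster choice (the other cluster was added after the data were seen), a replicate block and leaving out each array. The members and lists were chosen with earlier results of these data known. Every member is accounted for; of the other lists, the genes called are named. No batch information was used.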

Additional observations from a re-analysis of the deposited data

How the results depend on the processing

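Across 16 alternatives, the count of the 37 genes past the threshold was 0 in 8. It was 9 with array weights (DDIT3, TRIB3, ATF5, PPP1R15A and SYVN1 higher, ATF4, CHAC1, ASNS and SDF2L1 lower), where untreated array 3 had a weight of 5.11 and the others 0.45 to 1.22. It was 2 without the dimmest genes (DDIT3 at an adjusted p of 0.0499, and TRIB3). It was 1 each with median-centred arrays and a robust fit (TRIB3), and 1 each with the mean of all clusters and with the other cluster (ATF4). Leaving out 1 array gave 0 to 4. Genes called over the whole array numbered 3286 with array weights, 167 of the 18417 with all clusters in the fit, and 176 to 1149 with 1 array left out: 176 when untreated array 1 was dropped, 254 for untreated array 3 and 234 for selamectin array 2. A second quantile normalization moved the split from 444 higher and 420 lower to 380 and 525. The 9 calls among other pathway genes became 32 with array weights, 3 with all clusters, and 4 to 17 with 1 array left out. The median of the ATF4 targets lay between -0.01 and 0.16 with 1 array left out, and that of the chaperones between -0.083 and 0.038, with the lowest value without selamectin array 1 and -0.064 without untreated array 2. The cause of these moves was not tested.

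Deviations from the group mean correlated across genes with r = -0.01, 0.24 and -0.14 for same-numbered arrays. For arrays of different numbers r lay between -0.21 and 0.30. With 3 arrays in each group, these values cannot settle whether same-numbered cultures were handled together. The replicate block, a fit with the replicate number as a term, called 0 of the 37 and 650 genes in all; NFYC lost its call (adjusted p = 0.068), SEC11C gained one (0.036), and no other named gene changed its call. No sign of a named gene reversed with the replicate block. In other settings some signs reversed, among them those of PSPH (-0.17 in the main fit) and SEL1L (0.10 in the main fit). With array weights HSPA5 became -0.014, CALR -0.0070, HYOU1 -0.02 and PHGDH 0.0095. With the second quantile normalization HYOU1 became -0.0093 and PSAT1 -0.016, and PSPH became 0.082 with its other cluster. With 1 array left out the ranges were -0.0034 to 0.087 for HSPA5, -0.12 to 0.0059 for DNAJB9, -0.037 to 0.23 for SEL1L, -0.15 to 0.027 for PDIA4, -0.11 to 0.16 for PDIA6, -0.031 to 0.049 for HYOU1, -0.0080 to 0.064 for PSAT1, -0.15 to 0.10 for PHGDH, -0.064 to 0.21 for SHMT2 and -0.019 to 0.14 for NUPR1.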

Other observations

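Within the list of further ER genes, 2 families were picked after their values were seen, and no test was made of either. Proteins enter the ER through the translocon and lose their signal peptide there. Of 10 genes for the translocon, the signal peptidase and the signal receptor, 9 had positive differences, with a median of 0.19 log2 units, and none passed in limma (6 were higher at an unadjusted p below 0.05). Over all genes 63.0% were positive and 11.7% were higher at that p. SEC11C, a catalytic subunit of the signal peptidase, differed by 1.01 (limma adjusted p = 0.0505), with untreated array 2 low, and passed in 6 of 16 alternative settings. With 1 array left out it lay between 0.63, without untreated array 2, and 1.28 (limma adjusted p between 0.036 and 0.13). The receptor subunit SRPRB differed by 0.31 (limma adjusted p = 0.069), the peptidase subunits SPCS2 and SPCS1 by 0.27 and 0.18, the channel protein SEC61A1 by 0.25 (0.084) and the translocon-associated SSR1 by 0.19 (0.12). The other genes of this family, SSR2, SEC61B, SSR3 and SPCS3, differed by 0.08, 0.04, 0.02 and -0.0073, near the median of 0.04 over all genes.

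Proteins leave the ER in coated vesicles with cargo receptors, and escaped chaperones are brought back by retrieval receptors. Of 6 such genes, 3 had positive and 3 negative differences, and SEC24D fell as given above. The positive ones were the retrieval receptor KDELR1 at 0.12 and the coat subunits SEC31A and SEC23B at 0.04 each, all with overlapping groups. LMAN1, a lectin receptor for glycoprotein cargo, differed by -0.30 (limma adjusted p = 0.064) and KDELR3, a receptor for chaperones with a retrieval signal, by -0.47 (0.069), each lower on all 3 selamectin arrays. LMAN1 passed after a second quantile normalization (limma adjusted p = 0.040) and with array weights (0.037), and in no other of the 16 settings.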
